A study of Danio rerio with 13 samples.

Results

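The multi-mapping crosslink sites of hnRNP A1 outside chromosome 4 were examined in zebrafish embryos during zygotic genome activation (ZGA) and before it (preZGA), beside the sites of an IgG control pull-down. They were all sites of the 4 pooled multi-mapping tables that lie on neither chromosome 4 nor the mitochondrial genome, without 1 window of 10 kb on the plus strand of chromosome 20, which ends just before base 55790001. This gave 133123 of the 155607 sites listed in the 4 tables, at 115900 distinct nucleotides and strands on 24 chromosomes. The embryos were wild type of the AB strain and were irradiated at 254 nm. The groups were hnRNP A1 at ZGA (1000 cells, n = 4), hnRNP A1 at preZGA (32 cells, n = 3), IgG at ZGA (n = 3) and IgG at preZGA (n = 3), 13 libraries in all. Each group was deposited as 1 pooled table, so no spread between replicates could be had and no test was made. Every interval below is an exact 95% interval that covers counting error of the cDNAs alone.

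hnRNP A1 is an RNA-binding protein that takes part in splicing, in the export and stability of messenger RNA and in the processing of some microRNAs. Zygotic genome activation is the switch to transcription of the embryo's own genome, before which maternal RNA in the egg directs development. The method, iCLIP, uses UV light to fix a protein to the RNA it touches, and reads the crosslinked nucleotide from the point where each cDNA stops. A read is multi-mapping when it matches several places in the genome equally well, as reads from transposons, duplicated genes and families of structural RNAs do. Here, 1 cDNA was divided over its genomic hits, so a site can hold a fraction of a cDNA and 1 RNA can appear at several positions. A genome or annotation of the build of these tables, Zv9, was not used here. Sites are therefore given by position, without gene names, classes of repeat or sequences, and markers of the embryonic stage were not analysed here.

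Most of these sites held a small fraction of a cDNA. The hnRNP A1 tables listed 66535 sites with 43425 cDNAs at ZGA and 55130 sites with 27383 cDNAs at preZGA. The IgG tables listed 6908 sites with 2336 cDNAs at ZGA and 4550 sites with 1467 cDNAs at preZGA. These totals are not sequencing depths, because sites that failed the significance filter of the submitters are not listed. The median site held 0.167 cDNA with hnRNP A1 at both stages, and 0.0769 cDNA with IgG at ZGA and 0.0833 at preZGA. Sites below 1 cDNA made up 89.1% of the hnRNP A1 sites at ZGA and 89.9% at preZGA, and 98.4% and 98.5% of the IgG sites at those stages. Many values were 1 cDNA divided by a whole number of hits: 67.0% of the hnRNP A1 sites at ZGA and 68.0% at preZGA held such a value, with a median of 9 and 10 hits. For IgG the median was 14 hits at ZGA and 12 at preZGA. At the other end, 441 hnRNP A1 sites at ZGA held at least 10 cDNAs each and together 33.5% of the cDNAs, against 225 sites and 19.0% at preZGA. The mean per site was 0.653 cDNA at ZGA and 0.497 at preZGA with hnRNP A1, and 0.338 and 0.322 with IgG.

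Sites outside chromosome 4 held the larger part of the multi-mapping cDNAs in every group. Their share of the hnRNP A1 multi-mapping cDNAs was 64.3% at ZGA and 69.3% at preZGA, a ratio of 0.928 (0.914 to 0.943). In the IgG tables the share was 65.2% at ZGA and 82.6% at preZGA, a ratio of 0.789 (0.739 to 0.842). The share was thus lower at ZGA with both antibodies. With hnRNP A1 the log2 ratio was -0.11 over all sites and 0.03 over sites of at least 2 cDNAs, so its direction rests on the small sites. Over the same chromosomes, the multi-mapping cDNAs of hnRNP A1 came to 12.3% of the uniquely mapped ones at ZGA and 5.62% at preZGA. With IgG the corresponding figure was 21.2% at ZGA and 20.8% at preZGA.

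The hnRNP A1 pull-down listed 18.6 times the IgG cDNAs at ZGA (17.8 to 19.4) and 18.7 times at preZGA (17.7 to 19.7). These are ratios of pooled sums, not scaled to the number of libraries. By the sample labels that number was 4 for hnRNP A1 at ZGA and 3 for each other group, so the 2 stages may not be on an equal footing. Whether 3 or 4 libraries were summed for hnRNP A1 at ZGA was not settled. By number of sites the excess was 9.63 times at ZGA and 12.1 times at preZGA. The IgG cDNAs lay largely in 2 windows of 10 kb, on chromosome 9 and chromosome 1, which held 55.6% of them at ZGA and 50.4% at preZGA. Without these windows the excess of hnRNP A1 was 37.4 times at ZGA (35.2 to 39.8) and 35.7 times at preZGA (33.2 to 38.5). Both windows were picked by their IgG cDNAs in these same data, a choice that by itself favours a larger excess. The IgG cDNAs were also uneven by strand: 77.7% of the IgG cDNAs at ZGA and 75.1% at preZGA were on the plus strand, where both of these windows lie, against 51.6% and 48.4% of the hnRNP A1 cDNAs.

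By chromosome, the hnRNP A1 cDNAs were unevenly spread. At ZGA chromosome 1 held the most, 11.8%, against 7.26% at preZGA. At preZGA chromosome 5 held the most, 13.9%, against 10.9% at ZGA. The ratio of shares, ZGA over preZGA, had an interval above 1 on 6 chromosomes, below 1 on 12 and covering 1 on 6. Those above were chromosome 1 at 1.62 (1.54 to 1.71), chromosome 15 at 1.37, chromosome 24 at 1.33, chromosome 9 at 1.29, chromosome 7 at 1.27 and chromosome 14 at 1.25. The lowest were chromosome 5 at 0.783 (0.750 to 0.817), chromosome 6 at 0.786 and chromosome 22 at 0.808. Single windows set part of this order. The leading window of chromosome 1 held 68.2% of the hnRNP A1 cDNAs of that chromosome over both stages, and the leading window of chromosome 15 held 49.0%. Without the 10 leading windows of all chromosomes, the ratio was 1.05 (0.960 to 1.14) on chromosome 1 and 0.920 on chromosome 15. Chromosomes 24, 7 and 14 then stood highest, at 1.42, 1.35 and 1.33, and chromosome 6 lowest, at 0.836. Chromosome 2 turned, from 0.914 over all windows to 1.14 (1.05 to 1.24). By number of sites chromosome 24 turned to 0.960 and chromosome 5 to 1.04. Chromosomes 7 and 14 stayed above 1 by sites, at 1.10 and 1.16, and chromosome 6 below it, at 0.987. The IgG cDNAs were concentrated on chromosome 9, with 41.6% at ZGA and 48.2% at preZGA, and on chromosome 1, with 17.1% at ZGA and 5.91% at preZGA.

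**Figure D1:**
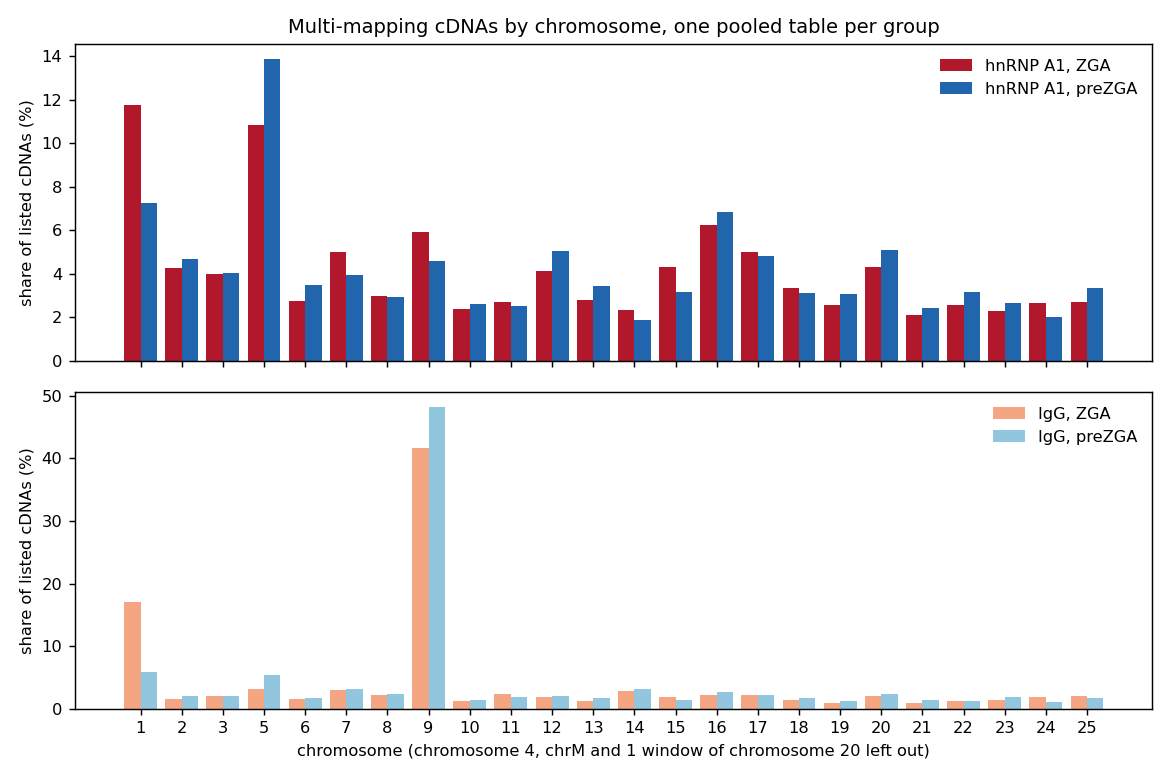
Share of the listed multi-mapping cDNAs (percent, vertical axis) on each chromosome (horizontal axis), with ZGA left of preZGA, for hnRNP A1 (upper panel) and IgG (lower panel); each bar is 1 pooled table and has no error bar. Chromosome 1 at 11.8% (ZGA) and chromosome 5 at 13.9% (preZGA) stand highest with hnRNP A1, and chromosome 9 with IgG.

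Sites were next summed in windows of 10 kb on 1 strand. A window is named below by its chromosome, its strand and its first base in Zv9, so that 1 plus 3370001 is the window from 3370001 to 3380000 on the plus strand of chromosome 1. The hnRNP A1 sites fell in 23087 windows at ZGA and 22225 at preZGA, and the IgG sites in 4250 and 3293. Windows below 1 cDNA made up 82.0% of the hnRNP A1 windows at ZGA and 86.9% at preZGA. The 10 leading windows held 25.6% of the hnRNP A1 cDNAs at ZGA (25.2% to 26.1%) and 21.1% at preZGA (20.6% to 21.6%), and 6 windows were among the 10 at both stages. To reach 50% of the cDNAs took 123 windows at ZGA and 177 at preZGA. With IgG it took 2 windows at each stage. The hnRNP A1 cDNAs were thus gathered in fewer windows at ZGA than at preZGA. The difference in the share of the 10 leading windows was no larger than the difference in 1 of them alone. That window, 1 plus 3370001, held 8.60% at ZGA and 4.04% at preZGA. By number of sites the order turned, with 3.58% of the hnRNP A1 sites at ZGA in the 10 windows of the most sites, against 4.39% at preZGA.

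The window 1 plus 3370001 led both hnRNP A1 tables. It held 3736 cDNAs with hnRNP A1 at ZGA, 1107 with hnRNP A1 at preZGA, 363 with IgG at ZGA and 60.7 with IgG at preZGA. Its share of the hnRNP A1 cDNAs was 8.60% at ZGA and 4.04% at preZGA, a ratio of 2.13 (1.99 to 2.28). Its share of the IgG cDNAs was also higher at ZGA, 15.6% against 4.14%, a ratio of 3.76 (2.84 to 4.99). All hnRNP A1 sites of the window lay between 3370501 and 3370624, in 2 short stretches that differed between the stages. The stretch of 50 nt from 3370575 to 3370624 held 3485 cDNAs at ZGA and 870.5 at preZGA, a ratio of 2.52 (2.34 to 2.72). The stretch of 11 nt from 3370501 to 3370511 held 251 cDNAs at ZGA and 236.3 at preZGA, a ratio of 0.67 (0.559 to 0.805). IgG cDNAs in the longer stretch numbered 353 at ZGA and 50 at preZGA, and those of the shorter one 10.4 and 10.7. The higher share at ZGA was therefore seen in the longer stretch, with both antibodies, and the 2 hnRNP A1 intervals do not overlap. The strongest nucleotide was 3370597 at ZGA, with 430.5 cDNAs, and 3370511 at preZGA, with 114 cDNAs.

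The same site profile was listed on chromosome 4. Of the 61 hnRNP A1 sites of 1 plus 3370001 at ZGA, 57 had a mirror site of equal value on the minus strand of chromosome 4, from 61299067 on, and these carried 95.9% of the cDNAs of the window. At preZGA it was 42 of 46 sites with 83.7% of the cDNAs. The window and its chromosome 4 copy are therefore not independent observations. Uniquely mapped cDNAs in 1 plus 3370001 numbered 238 with hnRNP A1 at ZGA, 8 with hnRNP A1 at preZGA, 6 with IgG at ZGA and 0 with IgG at preZGA. The whole 10 kb window of chromosome 4 that holds the copy listed far more of them. With hnRNP A1 it held 60294 at ZGA and 60053 at preZGA, and with IgG 2812 at ZGA and 1766 at preZGA. Which of these places gave rise to the shared multi-mapping cDNAs was not tested.

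In 9 plus 4230001 the control was above hnRNP A1. The window held 862 cDNAs with hnRNP A1 at ZGA, 279 with hnRNP A1 at preZGA, 934 with IgG at ZGA and 679 with IgG at preZGA. All of these lay within 19 nt, from 4239828 to 4239846, at 15, 13, 14 and 15 sites in the same order of groups, and those of IgG ended at 4239841 at ZGA and 4239843 at preZGA. The window alone held 40.0% of the IgG cDNAs at ZGA and 46.3% at preZGA. Its hnRNP A1 share was higher at ZGA (ratio 1.94, 1.70 to 2.24), while its IgG share was lower at ZGA (ratio 0.864, 0.782 to 0.955). By number of sites its hnRNP A1 log2 ratio was -0.0648, against 0.96 by cDNAs. Nucleotide 4239831 was the strongest in 3 of the 4 tables, and in IgG at preZGA it was 4239838. A smaller window of this kind was 14 plus 52120001, with 130 cDNAs for hnRNP A1 at ZGA, 25.1 for hnRNP A1 at preZGA, 30.4 for IgG at ZGA and 26.9 for IgG at preZGA, within 5 nt from 52120194. There IgG was above hnRNP A1 at preZGA only. These were the 2 windows with more IgG than hnRNP A1 cDNAs at preZGA among the compared windows described below, and 9 plus 4230001 was the 1 such window at ZGA.

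The windows that ranked 2 and 5 at ZGA lay on the minus strand of chromosome 5. The window 5 minus 4380001 held 1351 cDNAs with hnRNP A1 at ZGA, 986 with hnRNP A1 at preZGA, 12.6 with IgG at ZGA and 17.2 with IgG at preZGA, a ratio of hnRNP A1 shares of 0.864 (0.795 to 0.939). Its log2 ratio was -0.21 by cDNAs, but 0.111 by number of sites, 0.0939 without sites near IgG sites and 0.826 with uniquely mapped cDNAs added. Its sites spread over 2810 nt at ZGA, with 68.6% of the cDNAs in a stretch of 180 nt from 4382787 to 4382966 whose strongest nucleotide was 4382879 in all 4 tables. No uniquely mapped site was listed in it in any group, so its value of 0.826 came from the larger totals alone. All 305 sites of this window at ZGA were repeated with equal values at 2 places on chromosome 4, on the minus strand from 43906172 and on the plus strand from 44016404, and 4 further places on chromosome 4 repeated 204 to 297 of them. The window 5 minus 1190001 held 1062 cDNAs with hnRNP A1 at ZGA, 969 with hnRNP A1 at preZGA, 11 with IgG at ZGA and 15.7 with IgG at preZGA. Its share was lower at ZGA (ratio 0.691, 0.633 to 0.755), and each of its 3 leading stretches had an interval below 1, with ratios of 0.566, 0.533 and 0.462. The log2 ratio of the window was -0.53 by cDNAs, but 0.37 by number of sites and 0.528 with uniquely mapped cDNAs added. Uniquely mapped hnRNP A1 cDNAs in it numbered only 18 at ZGA and 0 at preZGA.

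The windows around it formed one set of copies. At ZGA, 110 of the 301 sites of 5 minus 1190001, with 63.5% of its cDNAs, were repeated in the left-out window on the plus strand of chromosome 20. That window held 3303 cDNAs with hnRNP A1 at ZGA, 2671 with hnRNP A1 at preZGA, 45.6 with IgG at ZGA and 15 with IgG at preZGA. Beside it, 20 minus 55770001 held 440 and 357 hnRNP A1 cDNAs at ZGA and preZGA, and 20 plus 55790001 held 179 and 176. On chromosome 5, 5 minus 1200001 held 401 and 343, and 5 minus 1180001 held 248 and 275. The ratios of these 4 windows were 0.777, 0.644, 0.737 and 0.568, all with intervals below 1. With uniquely mapped cDNAs added their log2 ratios were 0.673, 0.401, 0.607 and 0.222. Of uniquely mapped hnRNP A1 cDNAs, however, 5 minus 1200001 held 3 at ZGA and 0 at preZGA. The other windows of these 4 held none, so their turn came from the larger totals alone. By number of sites 5 minus 1200001 and 5 minus 1180001 also turned, to 0.127 and 0.0331. These 4 windows are not independent observations. At ZGA 171 of the 180 sites of 20 minus 55770001 were repeated on the plus strand from 55787525 on, across the end of the left-out window. Likewise 164 of the 170 sites of 5 minus 1200001 were repeated from 1188354 on the same strand. Together with 5 minus 4370001, and without the left-out window, the set held 2484 hnRNP A1 cDNAs at ZGA, against 2257 at preZGA. The window on the other side of the left-out one, 20 plus 55770001, held 1 hnRNP A1 site at each stage, of 0.20 cDNA at ZGA and 0.143 at preZGA.

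The change between stages differed along the length of a window on chromosome 15. The window 15 minus 37940001 held 1063 cDNAs with hnRNP A1 at ZGA, 275 with hnRNP A1 at preZGA, 13.3 with IgG at ZGA and no listed site with IgG at preZGA, a ratio of hnRNP A1 shares of 2.44 (2.13 to 2.79). Its stretch from 37940114 to 37940189 had a ratio of 3.82 (3.11 to 4.76), and its stretch from 37943458 to 37943485 one of 1.59 (1.33 to 1.91). The first of these was repeated in 7 minus 62410001, where 45 of 86 sites with 75.7% of the cDNAs matched at ZGA. That window held 433 cDNAs with hnRNP A1 at ZGA, 80.8 with hnRNP A1 at preZGA, 5.87 with IgG at ZGA and no listed site with IgG at preZGA, a ratio of 3.38 (2.65 to 4.33). At preZGA the places that repeated 7 minus 62410001 were on chromosomes 12 and 18, each with 17 of its 66 sites and 66.6% of its cDNAs. The 6 windows linked by such copies held 2032 hnRNP A1 cDNAs at ZGA, against 574.5 at preZGA. The size of the change in 7 minus 62410001 depended on the sites taken. Its log2 ratio was 1.76 by cDNAs, but 0.111 by number of sites and 0.363 after removal of sites near IgG sites.

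The window 16 plus 16400001 held nearly equal shares over all its multi-mapping sites. It had 1287 cDNAs with hnRNP A1 at ZGA, 755 with hnRNP A1 at preZGA, 9.07 with IgG at ZGA and 6.67 with IgG at preZGA, a ratio of 1.07 (0.982 to 1.18). As a share of the whole multi-mapping table its log2 ratio was -0.003, against 0.10 outside chromosome 4. By number of sites it was 0.283, and after removal of sites near IgG sites 1.62. No copy with 50% of its cDNAs was listed. Its 2 leading stretches, each of 50 nt, had intervals that cover 1, and their strongest nucleotides, 16405518 and 16405633, were the same at both stages. Its remaining large stretch, from 16405685 to 16405724, had a ratio of 1.77 (1.36 to 2.30), and its strongest nucleotide was 16405717 at ZGA and 16405685 at preZGA. No IgG site was listed in that stretch at either stage.

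**Figure D2:**
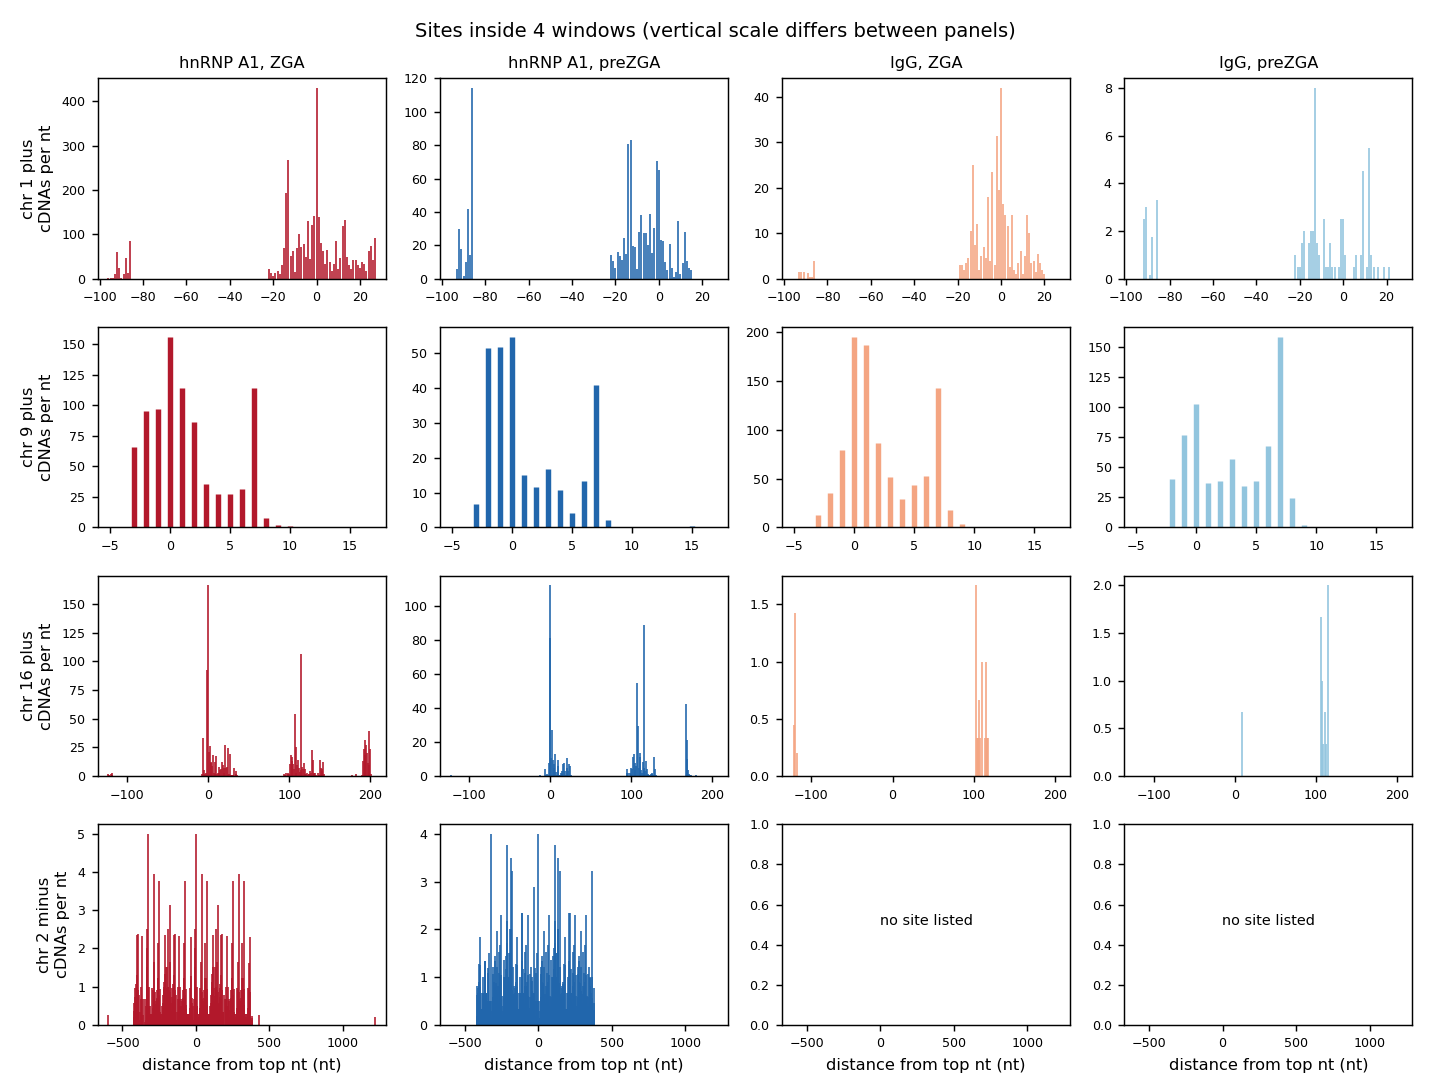
Listed cDNAs per nucleotide (vertical axis, own scale in each panel) against the distance in nt from the nucleotide with the most hnRNP A1 cDNAs (horizontal axis, positive downstream) in 1 plus 3370001, 9 plus 4230001, 16 plus 16400001 and 2 minus 44440001 (rows, top to bottom), by group (columns). Each line is 1 site of a pooled table: the sites of 9 plus 4230001 lie within 19 nt in all 4 groups, while those of 2 minus 44440001 cover a stretch of 805 nt, apart from single sites, with at most 5.0 cDNAs each and no IgG site.

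Leading windows differed in width as well as in level. In 2 minus 44440001 the sites were weak and dense: 496 sites with 325 cDNAs at ZGA and 549 sites with 382 cDNAs at preZGA, with no IgG site at either stage, and at most 5.0 cDNAs at ZGA and 4.0 at preZGA on a nucleotide. Its ratio was 0.537 (0.461 to 0.624), and 99.8% of its cDNAs at ZGA lay in the stretch of 805 nt from 44445808 to 44446612. By contrast, 17 plus 9470001 held 279 cDNAs with hnRNP A1 at ZGA, 325 with hnRNP A1 at preZGA, 3.48 with IgG at ZGA and 2.89 with IgG at preZGA, all within 29 nt from 9473831. Its ratio by cDNAs was 0.542 (0.460 to 0.637), but its log2 ratio turned to 0.259 by number of sites and to 0.136 with uniquely mapped cDNAs added. Its uniquely mapped hnRNP A1 cDNAs numbered only 5 at ZGA and 10 at preZGA, a ratio of shares of 0.688. The turn to 0.136 therefore came from the larger totals alone. Other focal windows had higher shares by cDNAs: 3 plus 11020001, with 486 hnRNP A1 cDNAs at ZGA, against 204 at preZGA within 20 nt (ratio 1.51, 1.27 to 1.78), and 17 plus 49100001, with 415 and 99.4 (ratio 2.63, 2.12 to 3.33). By number of sites 3 plus 11020001 did not change, with 20 sites at each stage. Its log2 ratio of -0.271 by share of sites came only from the larger number of sites listed in all at ZGA. IgG listed 6.12 cDNAs at ZGA and 1.19 at preZGA in 3 plus 11020001, and 13.1 and 6.05 in 17 plus 49100001.

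**Figure D3:**
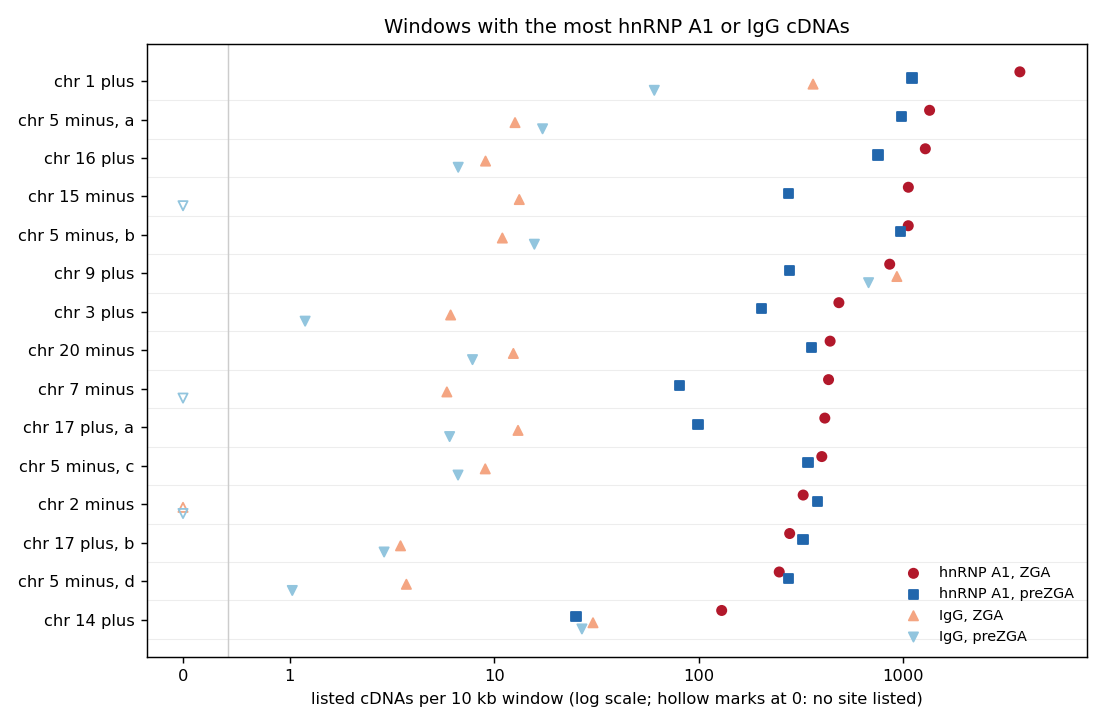
Listed cDNAs (horizontal axis, log scale; hollow marks at 0 mean that no site was listed) of the windows with the most hnRNP A1 or IgG cDNAs (rows), by group; each mark is 1 pooled table. On chromosome 5 minus, a to d are 4380001, 1190001, 1200001 and 1180001, and on chromosome 17 plus, a and b are 49100001 and 9470001. In the row of chromosome 9 plus, hnRNP A1 lies left of IgG at each stage, at 862 against 934 at ZGA and 279 against 679 at preZGA.

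To compare the stages over windows, all with 50 or more cDNAs of hnRNP A1, summed over ZGA and preZGA, were taken. They were 155 windows, which at ZGA held 52.0% of the hnRNP A1 cDNAs, and 47.2% at preZGA. A window was called higher or lower where its share of the hnRNP A1 cDNAs outside chromosome 4 differed at least 2-fold between the stages. At ZGA 44 windows were higher (28.4%), 27 lower (17.4%) and 84 within 2-fold. Over all 191 such windows of the multi-mapping tables, with chromosome 4, the left-out window and 1 mitochondrial window, 34% were higher and 14.1% lower. Of the 34 on chromosome 4 alone, 58.8% were higher and 0% lower. The percentages over the 191 windows were not taken on shares of the whole multi-mapping table. On those shares, 39 of the 155 windows were higher and 33 lower. The median log2 ratio of the 155 windows was 0.31, and scaled to that median 26 were higher and 42 lower. The direction in which more windows moved thus depends on the scale. With each set of copies counted once, by its leading window, 37 of 123 were higher and 20 lower.

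By the median, windows higher at ZGA were more focal than lower ones. The 44 higher windows held 9010 hnRNP A1 cDNAs at 1107 sites at ZGA and 2293 cDNAs at 613 sites at preZGA, a mean of 8.14 and 3.74 cDNAs per site. Of these, 1 plus 3370001 alone held 3736 cDNAs at 61 sites at ZGA, which raises the mean. The 27 lower windows held 1340 cDNAs at 1326 sites at ZGA and 2352 cDNAs at 2106 sites at preZGA, a mean of 1.01 and 1.12 per site. Summed over the class, the higher windows thus had more sites and more cDNAs per site at ZGA, while the lower windows had fewer sites of a similar mean. The direction of the cDNAs follows from how the classes were called. The counts of sites are raw, and hnRNP A1 sites in all also numbered more at ZGA, 66535 against 55130 at preZGA. The strongest nucleotide held a median of 36.6% of the cDNAs of a higher window at ZGA and 30.7% at preZGA, against 8.82% and 6.86% for a lower window. Not every higher window was focal. In the windows with the highest and next highest ratio, 17 minus 50590001 and 12 plus 3100001, it held 7.51% and 5.18% at ZGA. Their sites spanned 7218 and 3178 nt. By number of sites, the share was above its preZGA value in 26 of the 44 higher windows and in 0 of the 27 lower ones. The same held for 47 of the 84 windows within 2-fold and for 73 of all 155. The median ratio of these shares was 1.07 in the higher class, 1.06 in the class within 2-fold and 0.584 in the lower. More sites were therefore not a general trait of higher windows.

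An IgG site at ZGA was listed in 38 of the 44 higher windows (86.4%, 72.7% to 94.8%), in 65 of the 84 windows within 2-fold (77.4%, 67.0% to 85.8%) and in 7 of the 27 lower windows (25.9%, 11.1% to 46.3%). At preZGA the order was different: an IgG site was listed in 27 of the 44 higher windows (61.4%, 45.5% to 75.6%), in 70 of the 84 within 2-fold (83.3%, 73.6% to 90.6%) and in 13 of the 27 lower ones (48.1%, 28.7% to 68.1%). The IgG cDNAs of the higher windows came to 5.50% of their hnRNP A1 cDNAs at ZGA, against 5.03% at preZGA, and 73.3% and 52.6% of those IgG cDNAs lay in 1 plus 3370001. In the windows within 2-fold it was 8.62% at ZGA and 9.32% at preZGA, and 9 plus 4230001 held 88.6% and 88.0% of those IgG cDNAs. Without these 2 windows the IgG cDNAs came to 2.51% at ZGA and 4.61% at preZGA in the higher class, and to 1.06% and 1.16% in the class within 2-fold. In the lower windows, which include neither, it was 0.252% at ZGA and 0.688% at preZGA. Of the 115 IgG cDNAs of the higher class at preZGA, 60.7 lay in 1 plus 3370001 and 26.9 in 14 plus 52120001. The value of 4.61% thus rests in large part on 14 plus 52120001. When every hnRNP A1 site within 15 nt of an IgG site was left out, 44 windows still had 50 cDNAs, of which 5 were higher and 13 lower. The part of IgG background in the higher windows was not tested.

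**Figure D4:**
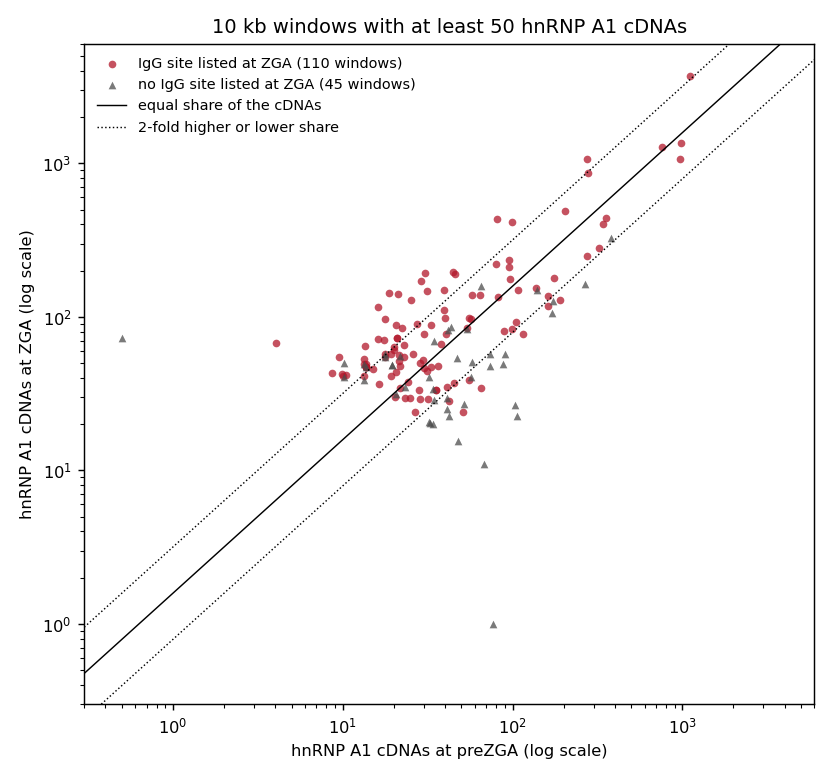
hnRNP A1 cDNAs at ZGA (vertical axis, log scale) against preZGA (horizontal axis, log scale) for the 155 windows with at least 50 cDNAs, each mark being 1 window of the pooled tables; circles have an IgG site listed at ZGA (110 windows) and triangles have none. The solid line marks equal shares and the dotted lines a 2-fold difference: 44 windows lie on or above the upper line and 27 on or below the lower one.

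The 10 highest ratios with an interval above 1 came from windows on 7 chromosomes. Against 110 of all 155 compared windows (71.0%), 9 of these 10 had an IgG site at ZGA. The exception, 17 minus 50590001, also had the largest difference. It held 73.2 cDNAs at 57 sites with hnRNP A1 at ZGA and a single site of 0.50 cDNA at preZGA, with no IgG site at either stage. Its ratio of 92.4 rests on that 0.50 cDNA and has an interval of 8.01 to 1843. Next stood 12 plus 3100001, with 67.5 hnRNP A1 cDNAs at ZGA, against 4.04 at preZGA (ratio 10.5, 4.00 to 40.5), 4.54 with IgG at ZGA and 1.67 with IgG at preZGA. Its uniquely mapped cDNAs moved the same way, with 641 for hnRNP A1 at ZGA, 32 for hnRNP A1 at preZGA, 158 for IgG at ZGA and 0 for IgG at preZGA. Of the 10 highest windows, 8 had uniquely mapped hnRNP A1 cDNAs, and their share of all uniquely mapped cDNAs was higher at ZGA in 7 of them. The exception, 24 minus 36740001, had 0 at ZGA, against 5 at preZGA. The next 7 had ratios between 3.49 and 4.77, and the sites of each spanned between 2 and 39 nt at ZGA. In 24 minus 36740001 all 117 cDNAs at ZGA and 16.1 at preZGA lay on 2 adjacent nucleotides, where IgG listed 10.9 at ZGA and 1.54 at preZGA. With the same number of sites at both stages its log2 ratio by sites was -0.271. In 10 minus 20630001, 92.7% of the 55.0 cDNAs at ZGA were on 1 nucleotide, 20630777. The pair 24 minus 32840001 (193 cDNAs at ZGA and 30.5 at preZGA) and 24 plus 36640001 (173 and 28.9) shared a repeated profile that held 54.7% and 61.2% of their cDNAs at ZGA.

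The 10 lowest ratios also came from 7 chromosomes, and 4 of the 10 had an IgG site at either stage. Of all 155 compared windows, 22 had no IgG site at either stage. In 20 minus 29520001 hnRNP A1 listed 1.0 cDNA at 1 site at ZGA and 76.5 cDNAs at 29 sites at preZGA, 76.0 of them within 32 nt from 29524050 (ratio 0.00824, 0.000205 to 0.0470). At preZGA 25 of these sites were repeated on the plus strand of chromosome 19. In 8 minus 23130001 hnRNP A1 listed 11 cDNAs at ZGA and 67.5 at preZGA, spread over most of the window (ratio 0.103, 0.0486 to 0.194). The windows 12 minus 4480001 and 12 minus 4390001, copies of each other in part, held 22.7 and 26.6 cDNAs at ZGA, against 106 and 104 at preZGA. Neither had an IgG site at either stage. They shared 77 sites of equal value at preZGA, with 52.6% and 53.5% of their cDNAs. Likewise 3 minus 61970001 and 3 minus 61980001 were copies of each other, with 27.2 and 22.7 cDNAs at ZGA against 52.0 and 42.3 at preZGA. The remaining lowest windows, 12 minus 20020001, 6 plus 34890001, 16 minus 44230001 and 22 plus 3880001, had ratios between 0.205 and 0.351. Of the 10 lowest windows, 7 had uniquely mapped hnRNP A1 cDNAs, whose share was lower at ZGA in 6. In 8 minus 23130001 there were 27 at ZGA and 34 at preZGA, a ratio of shares of 1.09, and in 12 minus 4480001 there were 143 and 201, a ratio of 0.978.

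Copies of a window could be found within the tables themselves, as sites with equal values at the same spacing elsewhere. Of the 155 windows, 52 had such a copy of at least 5 sites and 50% of their cDNAs, and these held 49.6% (ZGA) and 50.6% (preZGA) of the hnRNP A1 cDNAs in the compared windows. The copy lay on chromosome 4 for 4 windows, which held 5282 hnRNP A1 cDNAs at ZGA, against 2240 at preZGA. For 29 windows a copy lay on another chromosome (4822 cDNAs at ZGA and 3513 at preZGA) and for 19 on the same chromosome alone (1113 and 786). For 103 windows no copy of that extent was listed, although each of their multi-mapping cDNAs was divided over several hits. Of these, 17 held under 5 sites and could not be assessed, and 3, with 15 minus 37940001 among them, held the copy of another compared window. Copies of a smaller part of a window were not counted. Among the classes, 14 of the 44 higher windows, 25 of the 84 within 2-fold and 13 of the 27 lower windows had such a copy.

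At a finer grain, sites at most 15 nt apart and at least 5 in number were joined to clusters. There were 1994 such clusters with hnRNP A1 at ZGA, 1603 with hnRNP A1 at preZGA, 132 with IgG at ZGA and 45 with IgG at preZGA. A cluster of the very same profile was listed elsewhere for 16.3% of the hnRNP A1 clusters at ZGA (14.7% to 18%) and 20.3% at preZGA (18.3% to 22.3%). For IgG this was 58.3% at ZGA (49.4% to 66.8%) and 51.1% at preZGA (35.8% to 66.3%). By cDNAs the order of the antibodies turned. Copied clusters held 16.4% of the hnRNP A1 cDNAs in clusters at ZGA and 24.3% at preZGA. With IgG they held 2.86% at ZGA and 2.26% at preZGA. Of the 1440 IgG cDNAs in clusters at ZGA, 934 lay in 9 plus 4230001 and 353 in the longer stretch of 1 plus 3370001. At preZGA it was 679 and 50 of 811. Neither was listed elsewhere with an identical profile. The IgG shares by cDNAs, and so the turn, therefore rest largely on these 2 windows. Most families were small: 227 of the 325 copied hnRNP A1 clusters at ZGA and 244 of the 325 at preZGA had 1 copy. Only identical clusters counted as a family, and families were ranked where a member lay outside chromosome 4. The longer stretch of 1 plus 3370001 counted as uncopied, although 57 of the 61 sites of its window at ZGA matched chromosome 4. Among the ranked families, the stretch of 5 minus 4380001 described above had the most summed hnRNP A1 cDNAs. At ZGA it had 151 sites and 926 cDNAs at each of 3 places, 1 on chromosome 5 and 2 on chromosome 4. At preZGA the leading family was a part of the same stretch, with 99 sites and 518 cDNAs at each of 6 places, 1 on chromosome 5 and 5 on chromosome 4. These numbers of places count identical clusters alone. By matched sites, 5 minus 4380001 was repeated at the same places on chromosome 4 at both stages. The second family at ZGA had 9 copies of 30 sites and 98.8 cDNAs, 4 of them on chromosome 4 and the others on chromosomes 5 and 20, the left-out window included. The leading IgG family at ZGA, in 12 plus 3100001, had 11 sites and 2.44 cDNAs at each of 9 places, 8 of them on chromosome 4.

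Few multi-mapping sites were shared between tables at the same nucleotide, but those held much of the signal. Of the hnRNP A1 sites, 13922 were listed at both stages, which is 20.9% of the ZGA sites with 65.5% of their cDNAs and 25.3% of the preZGA sites with 64.2% of theirs. Sites listed at both stages held a mean of 2.04 cDNAs at ZGA and 1.26 at preZGA, against 0.284 and 0.238 for those of 1 stage. An IgG site of the same stage lay on 2.45% of the hnRNP A1 sites at ZGA (2.33% to 2.57%), which held 30.4% of the cDNAs, and on 2.30% at preZGA (2.17% to 2.43%), which held 18.7%. In turn, 23.6% of the IgG sites at ZGA and 27.8% at preZGA lay on an hnRNP A1 site. The hnRNP A1 sites on an IgG site held a mean of 8.10 cDNAs at ZGA and 4.04 at preZGA, against 0.466 and 0.413 for the others. The overlap with IgG was thus small by number of sites and larger by cDNAs.

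Uniquely mapped sites were listed in 101 of the 155 windows at ZGA (65.2%, 57.1% to 72.6%) and in 84 at preZGA (54.2%, 46.0% to 62.2%), and in neither stage for 50. At the same nucleotide, 2.46% of the multi-mapping hnRNP A1 sites at ZGA and 1.92% at preZGA also appeared in the uniquely mapped table of the same group. Within 15 nt it was 9.66% with 29.5% of the cDNAs at ZGA and 8.24% with 23.9% at preZGA. The leading windows covered the whole range: 15 minus 37940001 had 629 uniquely mapped hnRNP A1 cDNAs at ZGA, against 361 at preZGA, and 5 minus 4380001, 20 minus 55770001 and 5 minus 1180001 had none at either stage.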

How the data were processed

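Per the labels' protocols, embryos were irradiated, lysed and treated with RNase, the protein was immunoprecipitated with its antibody or, as the control, with IgG, and cDNAs were made with barcoded primers. The authors deposited, per the file names, significant crosslink sites at a false discovery rate of 0.01 (100 permutations, 15 nt neighbourhood, Ensembl release 72). The submitters' processing notes name CASAVA 1.4 and the build Zv9. The aligner and the removal of duplicates are not given in the sources used here. The deposited values are of a unit other than whole counts: 1 cDNA is divided over up to 50 hits, which gives values down to 0.02, and the sign gives the strand. Absolute values were used as fractional cDNAs. The 26 files held 8 distinct tables, because each replicate of a group carried a copy of the same pooled table, and copies were counted once. The labels' description speaks of 3 summed replicates, while the table of hnRNP A1 at ZGA names 4 libraries, which was not settled.

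With 1 pooled table per group no model was fitted and no p-value was computed. Shares have exact (Clopper-Pearson) intervals and ratios exact conditional binomial intervals, from sums rounded to whole cDNAs. A cDNA may stand in several windows, so windows that copy each other are not independent. A ratio is the share of the hnRNP A1 cDNAs outside chromosome 4 at ZGA over that at preZGA. Copies were matched by values equal within 0.001 cDNA. The named windows were the 10 with the most hnRNP A1 cDNAs per stage, the 10 highest and 10 lowest ratios whose interval excluded 1 among windows of at least 50 cDNAs, the 5 with the most IgG cDNAs per stage, both neighbours of the left-out window and the 5 leading families of copies. The window code was tested on simulated data. The windows, rules and alternatives were chosen with earlier results of these data known. The alternatives were other site and window minimums, window sizes, scales, tolerances and merge distances, numbers of sites, removal of sites near IgG sites and addition of uniquely mapped cDNAs. Computation used scipy 1.17.1, pandas 2.3.3 and numpy 2.4.6 under Python 3.11.15, and figures matplotlib 3.10.9.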

Additional observations from a re-analysis of the deposited data

How the results depend on the processing

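No paired analysis was possible because each group is 1 pooled table, and for the same reason no replicate was left out. Windows that copy each other share cDNAs. The cause of each change was not tested unless named. The excess of hnRNP A1 over IgG was 21.8 times at both stages over sites of at least 0.5 cDNA. Over sites of at least 2 cDNAs it was 17.7 at ZGA and 15.6 at preZGA, and by number of sites 9.63 and 12.1. Without the window of the most hnRNP A1 cDNAs it was 20.1 at ZGA. Without the 2 leading IgG windows, an alternative chosen after seeing the data, it was 37.4 at ZGA and 35.7 at preZGA. The log2 ratio of the hnRNP A1 share outside chromosome 4 turned to 0.0301 over sites of at least 2 cDNAs, and was -0.136 both with the left-out window of chromosome 20 kept in and without the strongest window. For IgG it was -0.193 by number of sites.

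Windows higher and lower at ZGA numbered 26 and 42 when scaled to the median window, 70 and 62 at a minimum of 20 cDNAs, and 8 and 5 at a minimum of 200. They numbered 17 and 7 by number of sites, 5 and 13 once sites up to 15 nt from an IgG site were left out, and 334 and 508 with uniquely mapped cDNAs added, which brought the compared windows to 3086. Chromosomes with an interval below 1 numbered 5 by number of sites and 4 without sites near IgG sites.

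The share of hnRNP A1 sites on an IgG site was 4.67% at ZGA and 4.31% at preZGA within 1 nt, 10.5% and 9.69% within 15 nt, and 1.27% and 0.921% over sites of at least 0.5 cDNA. The share listed at both stages was 27.5% of ZGA sites and 30.8% of preZGA sites within 1 nt, 37.4% and 39.4% within 15 nt, and 33.2% and 41.3% over sites of at least 0.5 cDNA. The 10 leading windows held 23.2% at ZGA and 18.2% at preZGA with windows of 1 kb, 26.7% and 22.7% with windows of 100 kb, and 3.58% and 4.39% by number of sites, which turns the order of the stages. Clusters with a copy made up 22.3% at ZGA and 27.6% at preZGA at a merge distance of 3 nt, and 22.4% at preZGA with at least 3 sites.

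Named windows turned direction under 4 alternatives, given as log2 ratios. The window 16 plus 16400001 was at -0.003 as a share of the whole multi-mapping table, against 0.104. Windows that were lower by cDNAs came out higher by sites: 5 minus 4380001 had 0.111, 5 minus 1190001 had 0.37, 5 minus 1200001 had 0.127, 17 plus 9470001 had 0.259 and 5 minus 1180001 had 0.0331. Windows that were higher by cDNAs came out lower by share of sites: 9 plus 4230001 had -0.0648, 2 minus 49360001 had -0.114, 11 minus 840001 had -0.0962, and 3 plus 11020001, 24 minus 36740001 and 24 plus 36640001 each had -0.271. The windows at -0.271 listed equal numbers of sites at both stages, so their value came only from the larger total of sites at ZGA. With uniquely mapped cDNAs added, 5 minus 4380001 was at 0.826, 5 minus 1190001 at 0.528, 20 minus 55770001 at 0.673, 5 minus 1200001 at 0.607, 17 plus 9470001 at 0.136, 5 minus 1180001 at 0.222, 20 plus 55790001 at 0.401 and 20 plus 55770001, which holds 1 site per stage, at 0.857. That alternative divides by the much larger totals of uniquely mapped cDNAs, which were lower at ZGA than at preZGA. It therefore raises the log2 ratio of any window without uniquely mapped cDNAs, whatever the sites of that window hold. Without sites near IgG sites, 5 minus 4380001 was at 0.0939. No other log2 ratio that was recomputed turned its sign. Some changed in size after removal of sites near IgG sites. The window 7 minus 62410001 fell from 1.76 to 0.363, and 17 plus 52530001 from 1.8 to 0.694. In contrast, 16 plus 16400001 rose from 0.104 to 1.62, and 15 minus 37940001 from 1.29 to 1.71. The window 2 minus 44440001, which has no IgG site, moved from -0.898 to -0.567.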
